A study of Mus musculus with 4 samples.

Results

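The 10 Sox genes followed here through gastruloid culture belong to 4 subfamilies: Sox1, Sox2 and Sox3 (subfamily B1), Sox7, Sox17 and Sox18 (F), Sox8, Sox9 and Sox10 (E), and Sox11 (C). They were found by symbol in the deposited gene lists, where each of the 10 members had exactly 1 entry among 32286 features at days 4, 5 and 6 and among 32287 at day 11. Gastruloids are aggregates of mouse embryonic stem cells that organise and differentiate in suspension. Here they were made from Zx1, an established wild type line, pulsed at day 2 with Chiron, which activates Wnt signalling, given bFGF, VEGF and ascorbic acid from day 4 to day 7, and then kept in N2B27 medium. Pools of at least 8 gastruloids were dissociated on days 4, 5, 6 and 11, and each pool gave 1 droplet library of 3′ ends of polyadenylated RNA, counted as unique molecular identifiers (UMIs, 1 per captured molecule). All 4 groups therefore share the line, the genotype and the Wnt pulse, and differ in day, in time with the added factors, and in library. The day 11 file header also names another version of the counting software, Cell Ranger 6.0.1, where those of days 4, 5 and 6 name 3.1.0. Day 11 and that version cannot be told apart.

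Sox proteins are transcription factors that bind DNA through a shared domain, the HMG box, and the subfamilies are groups with closely related boxes. B1 genes are known for holding pluripotent and then neural progenitor states, F genes for endothelium, with Sox17 also a regulator of definitive endoderm, E genes for neural crest, cartilage and several progenitor pools, and C genes for neuronal and mesenchymal differentiation. Single markers were used to find the tissues: Cdh5 encodes the junctional cadherin of endothelium, Epcam an adhesion molecule of epithelium, Elavl3 an RNA-binding protein of neurons, and Twist1 a transcription factor of mesenchyme.

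The relatedness of the boxes can be read from the coding sequence. Over the 79 codons that start 4 codons before the shared peptide RPMNAF, members of the same subfamily were identical at 76.8% to 89.5% of bases (9 pairs, median 83.1%), and members of different subfamilies at 64.6% to 75.1% (36 pairs, median 66.9%). The first 90 coding bases of the box are shown for 1 member of each subfamily, because the groups compared below rest on how related the boxes are. Identity within and between subfamilies was taken over the 79 codons and not over these 90 bases alone. Capitals mark bases that differ from Sox2, and the sequences, from GENCODE transcripts on GRCm38 (mm10), run 5′ to 3′ on the coding strand.
Sox2: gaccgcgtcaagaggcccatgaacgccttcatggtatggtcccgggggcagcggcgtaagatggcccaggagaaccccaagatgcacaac
Sox9: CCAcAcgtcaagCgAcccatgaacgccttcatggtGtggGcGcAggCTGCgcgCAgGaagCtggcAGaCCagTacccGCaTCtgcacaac
Sox17: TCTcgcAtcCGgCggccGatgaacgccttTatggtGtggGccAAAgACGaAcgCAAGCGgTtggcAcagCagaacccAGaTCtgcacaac
Sox11: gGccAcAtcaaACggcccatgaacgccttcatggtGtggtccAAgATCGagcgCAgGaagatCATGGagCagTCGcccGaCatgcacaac

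Sox9 differed from Sox2 at 27 of these bases, Sox17 at 31 and Sox11 at 26. The stretch lies in the only exon of Sox2 (chr3:34650536-34650625, plus strand) and of Sox11 (chr12:27342181-27342270, minus strand). In Sox9 it is in exon 1 of 3 (chr11:112782891-112782980, plus strand) and in Sox17 in exon 4 of 5 of the transcript read (chr1:4493122-4493211, minus strand). The gene bodies of Sox1 and Sox2 overlap long noncoding transcripts on the same strand, Sox1ot and Sox2ot, which were counted at no more than 0.386 and 3.47 CPM. Sox8 overlaps 2810468N07Rik on the opposite strand, which had 2.34 to 5.56 CPM, above the level of Sox8 itself on every day, so counts of Sox8 that depend on strand assignment are uncertain.

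After filtering, 6555, 6457, 5254 and 7850 cells were kept on days 4, 5, 6 and 11, with medians of 24197, 28139, 24721 and 11422 UMIs per cell. Levels are CPM, the UMIs of a gene as a proportion of all UMIs of the same cells, summed over the kept cells of a day, and shares of positive cells were taken after every cell had been thinned to 5000 UMIs, unless stated. Each day is 1 library, so there is no replicate, no test was made, and the intervals given are 95% intervals for counting error only. Day and library cannot be told apart, and lower summed levels in a library cannot be told apart from fewer cells of a type. The kept cells of any 2 days had 5 to 20 barcodes in common, at most 0.305% of the later library. The label of mouse embryonic stem cells names the starting material: Pou5f1, the defining pluripotency factor, had 64.5, 24.5, 6.58 and 2.20 CPM on days 4, 5, 6 and 11, and Nanog was at 0.0795 CPM by day 11.

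Day 6 was the day on which most members stood above the day before. Of the 7 members that passed a minimum of 5 CPM (the mean of both days), 6 were at least 2-fold higher at day 6 than at day 5, where 12.3% of 9684 genes were, and the median ratio of these 7 was 2.48 against 1.14 over all genes. None of the 7 was at least 2-fold lower (4.44% of genes). From day 4 to day 5, 4 members passed the minimum and none was 2-fold higher or lower, where 7.39% and 4.68% of 9248 genes were. Under the minimum, Sox7 was 8.87-fold higher (6.94 to 11.5), Sox18 30.7-fold higher (19.0 to 53.1) and Sox3 at 0.432-fold (0.378 to 0.494). Sox1, Sox8 and Sox10 moved by less than 2-fold. From day 6 to day 11, 7 members passed, none was 2-fold higher (9.36% of 10198 genes), and 2, Sox17 and Sox18, were 2-fold lower (3.93% of genes). Under the minimum at this step, Sox10 was 2.86-fold higher, Sox8 1.65-fold higher and Sox1 at 0.386-fold. Of the 9 other Sox genes examined, 5 passed and 4 of these were at least 2-fold higher at day 6, with none 2-fold lower. At the steps to day 5 and to day 11, 2 and 4 of them passed and none was 2-fold higher or lower. Those higher at day 6 included Sox4, the other abundant C gene, with 96.6 CPM at day 5 and 259.4 at day 6.

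**Figure D1:**
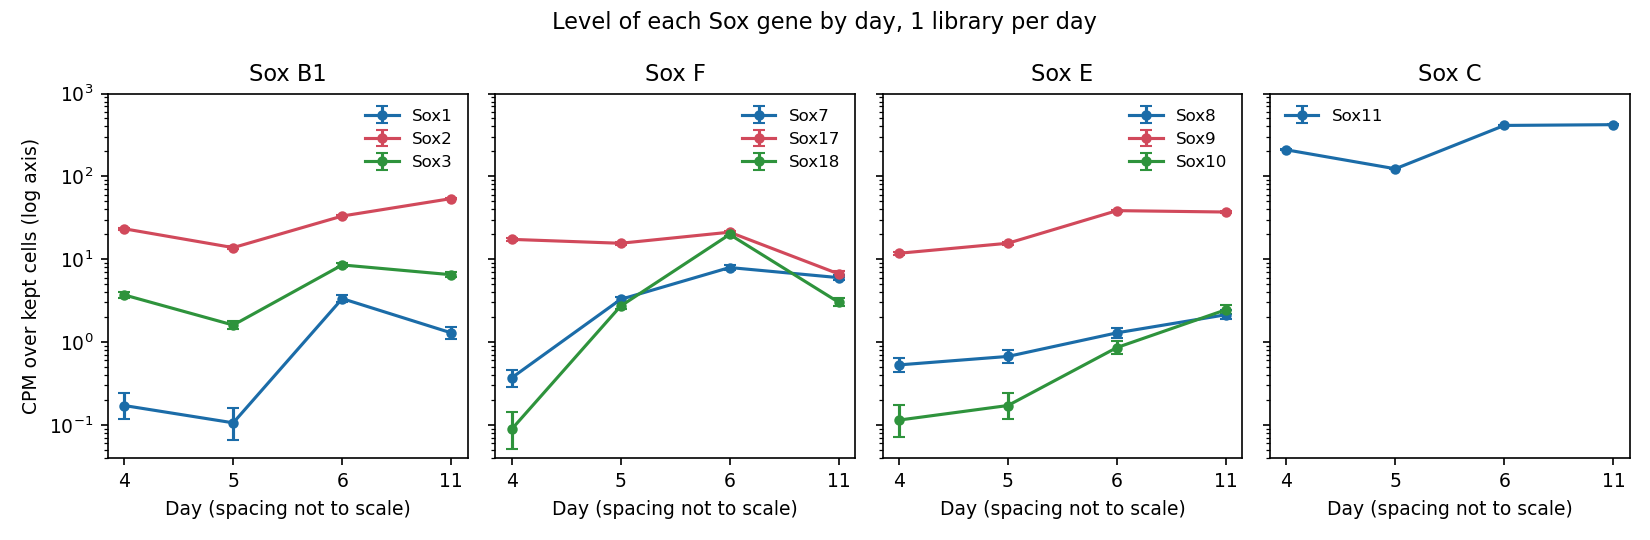
Level of each Sox gene (CPM over all kept cells, log axis) at days 4, 5, 6 and 11, by subfamily, with 1 library per day. Points are library values and bars are 95% Poisson intervals. The lines dip at day 5 for Sox2, Sox3 and Sox11, while Sox7 and Sox18 start below 0.4 CPM and reach 7.93 and 19.9 CPM at day 6.

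Among the B1 genes, Sox2, the pluripotency and neural progenitor factor, had 23.3 CPM at day 4 (22.6 to 24.0), 13.8 at day 5 (13.3 to 14.3), 33.2 at day 6 (32.3 to 34.1) and 53.9 at day 11 (52.6 to 55.3). Sox3, its close relative of early neural tissue, had 3.71, 1.602, 8.52 and 6.49 CPM. Sox1, a marker of committed neural progenitors, had 0.171 and 0.106 CPM at days 4 and 5, then 3.34 at day 6 and 1.29 at day 11. Thus Sox2 and Sox3 were lowest at day 5 and Sox1 was near its detection limit until day 6. Sox2 made up between 73.7% and 89.0% of the B1 UMIs on each day. After thinning, 6.88%, 3.83%, 7.15% and 8.86% of cells were positive for Sox2, and the unthinned shares were 15.6%, 9.65%, 13.7% and 10.9%.

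Among the F genes, Sox17 had 17.3, 15.6, 21.2 and 6.64 CPM on days 4, 5, 6 and 11. Sox7, expressed in early endothelium and primitive endoderm, had 0.368, 3.27, 7.93 and 5.99 CPM. Sox18, a regulator of arterial and lymphatic vessel formation, had 0.0882, 2.71, 19.9 and 3.02 CPM. The day 4 library therefore held Sox17 nearly without its relatives: Sox17 gave 97.4%, 72.2%, 43.2% and 42.4% of F UMIs on days 4, 5, 6 and 11. Sox18 was 30.7-fold higher at day 5 than at day 4 (19.0 to 53.1), both levels being under the 5 CPM minimum, and 7.34-fold higher at day 6 than at day 5 (6.69 to 8.06).

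Among the E genes, Sox9, a regulator of cartilage, neural crest and many progenitors, had 11.8, 15.6, 38.6 and 37.1 CPM on days 4, 5, 6 and 11. Sox8 had 0.529, 0.670, 1.29 and 2.14 CPM, and Sox10, which specifies neural crest and its glia, 0.114, 0.171, 0.859 and 2.45 CPM. Sox9 thus carried 89.0% to 94.9% of E UMIs, and the intervals of Sox9 at days 6 and 11 overlapped (37.6 to 39.6 and 36.0 to 38.2). Sox11, the C gene, had 209.1, 123.4, 411.7 and 420.5 CPM on days 4, 5, 6 and 11. It was the widespread member: 59.2%, 41.8%, 76.8% and 59.7% of thinned cells were positive, against at most 14.02% for any other member.

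Members also differed in how few cells held their transcripts. At day 11, the 1% of cells with the most UMIs of the gene held all UMIs of Sox10, 76.7% of Sox1 and 75.8% of Sox17. The same measure was 32.1% for Sox2, 18.3% for Sox9 and 12.7% for Sox11. Sox10 was detected in 0.650% of unthinned cells at day 11, with a median of 5 UMIs in the positive cells, whereas Sox9 was detected in 23.4% with a median of 1.

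The next question was whether subfamilies share cells. For each pair, the number of thinned cells positive for both was divided by the number expected if the detections were independent within the library. B1 and F met less often than expected, with overlapping intervals between neighbouring days: 18 cells against 26.9 expected at day 4 (ratio 0.669, 0.396 to 1.06), 11 against 20.2 at day 5 (0.545, 0.272 to 0.974), 6 against 33.1 at day 6 (0.181, 0.0666 to 0.395), and 0 of 7527 cells against 20.9 at day 11 (0 to 0.176). The interval at day 4 included 1. With 3 counts taken as the limit that a count of 0 allows, a simpler bound than that interval, 0 of 7527 cells allows a share of up to 0.0399%. Thinning is a random draw, and over 20 further draws 0 to 3 such cells were seen at day 11 (median 1) and 6 to 16 at day 6 (median 10.5), so the draw given is at the low end. All 20 draws kept the 4 ratios below 1, and the interval included 1 in 10 of them at day 4 and in 4 at day 5. Without thinning the day 4 ratio was 1.12 and the day 6 ratio 0.809, and cells positive for B1 and F at day 4 had a median of 40944 UMIs against 24295 for cells positive for either alone. The part of depth and of merged droplets in these cells was not tested.

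E and F also met less often than expected on every day, with ratios, in order of day, of 0.402 (0.162 to 0.828), 0.328 (0.164 to 0.586), 0.527 (0.356 to 0.752) and 0.120 (0.0326 to 0.306). At day 11 this was 4 cells against 33.4 expected, and the 20 further draws gave 5 to 14 (median ratio 0.280). At day 4 the interval included 1 in 6 of the 20. With at least 2 UMIs per subfamily the day 4 ratio was 1.23, from 1 cell against 0.813 expected (0.0311 to 6.85). B1 and E did not keep such a pattern. They met in 14 cells against 29.1 expected at day 4 (0.481, 0.263 to 0.807) and in 9 against 22.4 at day 5 (0.402, 0.184 to 0.763), and on each of these days the interval included 1 in 3 of the 20 further draws. At day 6 they met in 71 against 68.0 (1.04, 0.817 to 1.32) and at day 11 in 261 against 107.8 (2.42, 2.14 to 2.73). At day 11, 36.6% of B1-positive cells were E-positive. The change of side between days 4 and 11 was not tested, since each day is 1 library.

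Sox11 was found with both B1 and E at day 11, with ratios of 1.478 (1.37 to 1.59) and 1.25 (1.17 to 1.33). With E it had been 1.11 (0.970 to 1.26), 1.16 (1.02 to 1.32) and 1.11 (1.03 to 1.19) at days 4, 5 and 6. On these days the interval included 1 in 16, 4 and 1 of the 20 further draws. With B1 it had been below 1 at days 4 and 5 (0.659 and 0.585) and at 1.01 at day 6. With F it stayed below 1, between 0.463 and 0.666 on the 4 days. Among cells positive for B1, E or F, those that held more than 1 of the 3 subfamilies were 39 of 1180 (3.31%) at day 4 and 31 of 1196 (2.59%) at day 5. They were 99 of 1516 (6.53%) at day 6 and 265 of 1807 (14.7%) at day 11. Cells with all 3 numbered 4 at day 6 and none on the other days in this draw. In the further draws there were up to 1 at day 4 and up to 2 at days 5 and 11.

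**Figure D2:**
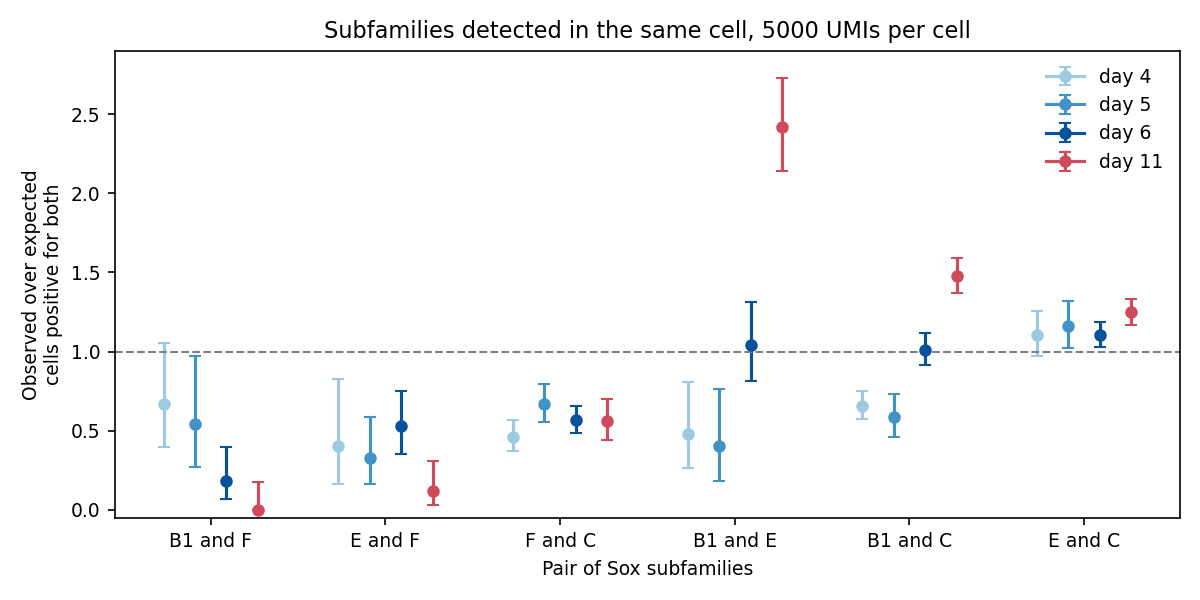
Cells positive for both of 2 Sox subfamilies, as observed over expected number, for 6 pairs on 4 days, after thinning to 5000 UMIs per cell. Points are library values, bars are 95% intervals for counting error, and the dashed line marks independence. F stays below 1 with every other subfamily, while B1 with E moves from 0.481 at day 4 to 2.42 at day 11.

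The gene pairs behind these ratios were compared where at least 3 cells were expected. Within-subfamily ratios were 2.80 at day 4 (1 pair), 4.29 and 6.00 at day 5 and up to 12.8 at day 6, where 5 of 6 pairs had intervals above 1. At day 6, Sox18 was in 55.9% of Sox7-positive cells (ratio 12.8, 9.86 to 16.4), Sox17 and Sox18 met with a ratio of 11.1 (9.24 to 13.3), and Sox1 and Sox2 with 9.98 (7.14 to 13.6). Sox8 with Sox9 was the exception, at 0.650 (0.177 to 1.66) at day 6 and 0.951 (0.411 to 1.87) at day 11. Sox9 with Sox10 at day 11 was 0.630 (0.130 to 1.84). These 3 intervals included 1 and were wide. On all UMIs, Sox9 was in 69.7% of the 33 Sox10-positive cells at day 6 and in 36.2% of the others, and Sox8 in 15.2% and 3.31%. At day 11 Sox9 was in 23.5% of the 51 Sox10-positive cells and in 23.4% of the others, and Sox8 in 9.804% and 2.15%. The Sox10-positive cells were deeper, with medians of 34062 UMIs against 24654 at day 6 and 18487 against 11383 at day 11.

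Within subfamilies, the 3 pairs of day 11 had 1 ratio above 1 and 2 below. Between subfamilies, ratios below 1 were 10 of 12 at day 4, 11 of 15 at day 5, 15 of 22 at day 6 and 10 of 20 at day 11. The intervals of these pairs lay above 1 for 0, 1, 1 and 8 of them on the same days, and below 1 for 4, 6, 10 and 9.

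Between subfamilies at day 11, Sox9 was in 36.6% of Sox2-positive cells (ratio 2.61, 2.30 to 2.95), and Sox3 met Sox9 with a ratio of 3.18 (2.52 to 3.94). Sox2 was seen with none of the F genes in that draw, where 10.5 cells were expected with Sox7, 8.60 with Sox17 and 5.23 with Sox18. The 20 further draws gave at most 0, 1 and 3 such cells.

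In endothelium all 3 F genes stood high. The 4 libraries, in order of day, held 18, 201, 437 and 434 cells with Cdh5. Sox18 had 46.4 CPM in these cells at day 5 against 0.908 in the others (51.1-fold, 42.6 to 61.6), 174.2 against 0.942 at day 6 (185.0-fold, 154.7 to 222.9) and 31.9 against 0.290 at day 11 (109.9-fold, 75.4 to 165.6). Sox7 had 43.7 against 1.60 CPM at day 5, 68.5 against 0.501 at day 6 and 64.3 against 0.464 at day 11. Sox17 had 58.6 against 13.8 CPM at day 5, 160.2 against 4.11 at day 6 and 63.9 against 1.22 at day 11. Among all genes of at least 5 CPM in either set at day 6, ordered by this ratio, Sox18 was 33rd, Sox7 52nd and Sox17 128th of 10318.

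The levels of the 3 F genes in Cdh5-positive cells did not move alike. Between days 6 and 11 Sox18 went from 174.2 to 31.9 CPM and Sox17 from 160.2 to 63.9, while Sox7 stayed at 68.5 (95% interval 64.5 to 72.6) and 64.3 (59.4 to 69.6). Sox7 accordingly supplied 16.99% of the F UMIs of these cells at day 6 and 40.2% at day 11. After thinning, Sox18 was detected in 48.3% of Cdh5-positive cells at day 6 and 12.01% at day 11, against 0.354% and 0.140% of Cdh5-negative cells, the background for a gene of endothelium. Median depth was 32017 UMIs in Cdh5-positive and 24244 in Cdh5-negative cells at day 6, and 17536 and 11232 at day 11.

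Sox2, by contrast, had 0.509 CPM in Cdh5-positive cells at day 5 against 14.3 in the others, 8.77 against 36.2 at day 6 and 5.21 against 58.5 at day 11. Sox9 and Sox11 were lower there too at day 11, with 9.19 against 39.7 and 107.9 against 450.1 CPM. At day 4 only 18 cells were Cdh5-positive, of which 12 also held Epcam and 10 Twist1. The 3.36-fold higher Sox17 there (2.36 to 4.64) was 0-fold once cells with another marker were left out, which left 3 positive cells, and 0.689-fold with Pecam1, another endothelial gene, in place of Cdh5. At day 5 the 4.25-fold ratio of Sox17 was 25.4 once such cells were left out and 1.39 with Pecam1. The 6 cells with Cdh5 and no Epcam at day 4 had 41.8 CPM of Sox17 (19.1 to 79.3), from 9 UMIs. Sox2 at day 5 was 5.48-fold higher in Pecam1-positive cells. Pecam1 marked a wider set than Cdh5 on these days, with 423 positive cells at day 4 and 565 at day 5. They had 88.7 and 50.8 CPM of Sox2, and 0.744 and 15.3 CPM of Sox7. The Pecam1 ratios of days 4 and 5 are therefore not a check on endothelium alone.

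How many of the 3 F genes a Cdh5-positive cell showed also differed by day. Of the thinned cells, 36 of 437 (8.24%) held all 3 at day 6, 132 held 2, 139 held 1 and 130 none. At day 11 it was 6 of 408 (1.47%) with all 3 and 235 (57.6%) with none. On all UMIs, 58.8% of cells held all 3 at day 6 and 18.4% at day 11, with the lower depth of day 11 beside it.

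The cells that held most Sox17 UMIs differed by day, as did the number of Epcam-positive cells. On all UMIs these were 30.7%, 44.8%, 9.08% and 1.80% of cells, and after thinning 15.3%, 22.1%, 4.24% and 1.05%. At day 4, cells with Epcam and no Cdh5 held 95.6% of its UMIs. That share was 75.5% at day 5, 12.2% at day 6 and 5.45% at day 11, while cells with Cdh5 and no Epcam held 0.269%, 10.7%, 78.4% and 81.8%. Sox17 in all Epcam-positive cells was 49.2 CPM against 0.928 in Epcam-negative cells at day 4 (53.0-fold, 44.1 to 64.2) and ranked 11th of 9413 genes. It was 4.54-fold higher at day 5 (4.16 to 4.96) and 1.601-fold at day 6 (1.46 to 1.76). At day 11 the ratio was 2.85 (2.11 to 3.78) in 141 Epcam-positive cells, and 0.920 when 16% of cells were removed as doublets in place of 8%.

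**Figure D3:**
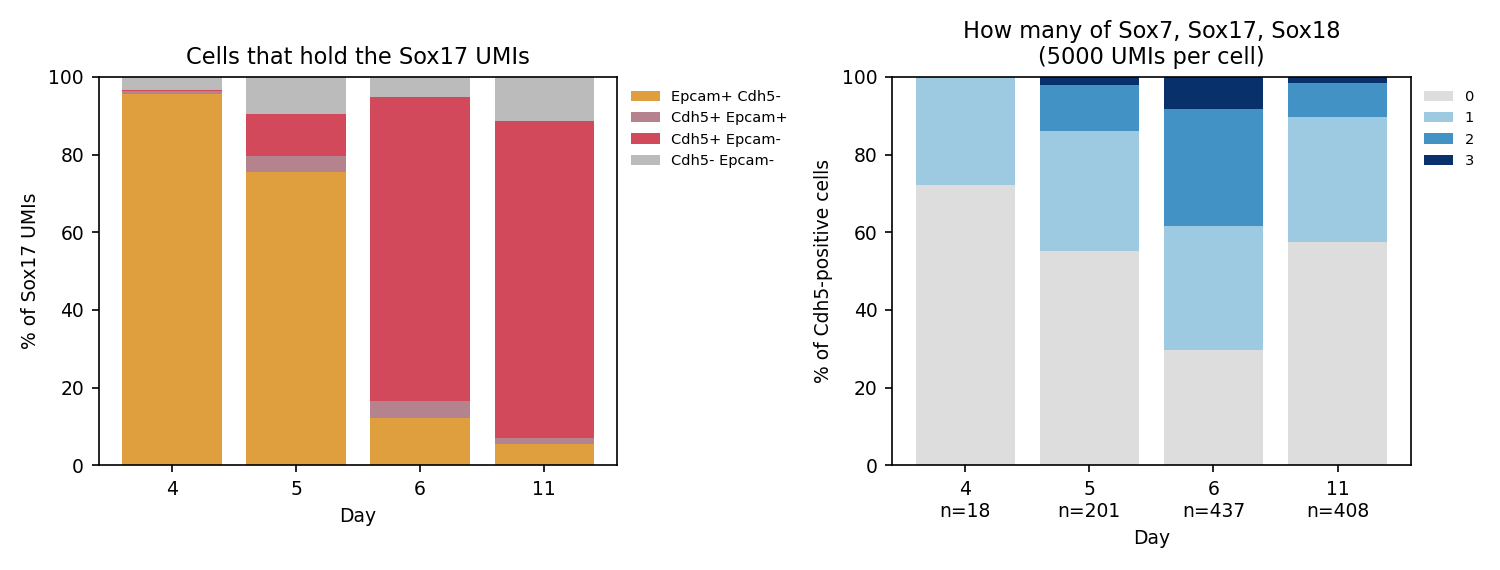
Left, the share of Sox17 UMIs (% of all Sox17 UMIs of the day) in cells sorted by detection of Epcam and Cdh5. Right, the share of Cdh5-positive cells with 0, 1, 2 or 3 of Sox7, Sox17 and Sox18 after thinning to 5000 UMIs. Sox17 UMIs pass from 95.6% in Epcam-positive, Cdh5-negative cells at day 4 to 81.8% in Cdh5-positive, Epcam-negative cells at day 11.

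Epcam-positive cells were not 1 population. At day 4 the 489 cells with Epcam and Foxa2, the endoderm regulator, had 165.5 CPM of Sox17 (159.6 to 171.6) and 30.6 of Sox2, and they held 87.9% of all Sox17 UMIs. The 868 cells with Epcam and Pou5f1 but no Foxa2 had 5.09 CPM of Sox17 and 102.5 of Sox2, with 60.1% of all Sox2 UMIs. The 657 with Epcam and neither of the others had 7.12 and 6.94 CPM. At day 5 the same 3 sets had 109.0, 9.05 and 6.94 CPM of Sox17, and 7.89, 104.6 and 4.65 of Sox2. Within the Epcam-positive cells of both days, Sox17 was thus highest in the set with Foxa2 and Sox2 in the set with Pou5f1. At day 6 the 108 cells with Epcam and Foxa2 had 64.5 CPM of Sox17 and 50.4 of Sox2, and the 11 such cells at day 11 had 76.9 and 63.7, with an interval of 40.8 to 94.7 for the latter value of Sox2. This division was chosen after the values were seen.

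Sox11 ran the other way from Sox17 in the Epcam-positive cells: at day 4 it had 72.7 CPM in the set with Foxa2 and 243.4 in the set with neither gene. Sox2 was higher in Epcam-positive cells as a whole on every day, with 51.7 against 8.64 CPM at day 4, 24.96 against 4.15 at day 5, 53.3 against 30.7 at day 6 and 134.5 against 51.8 at day 11. The day 6 direction turned to 0.862-fold once cells with another marker were left out.

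In neural cells B1 genes and Sox11 stood high. Elavl3 was detected in 61, 152, 60 and 769 cells at days 4, 5, 6 and 11. At day 11, Sox11 had 2114 CPM in them (2086 to 2142) against 248.7 in the others (8.50-fold), and Sox2 had 239.7 against 35.1 (6.84-fold, 6.49 to 7.20). Sox3 had 31.5 against 3.95 CPM (7.99-fold, 6.89 to 9.26). At day 6 Sox2 had 220.6 against 30.6 CPM, Sox3 60.6 against 7.80 and Sox1 19.4 against 3.12, with Sox11 at 601.8 against 409.0. With Dcx, another neuronal gene, in place of Elavl3 the 3 B1 ratios of day 6 turned to 0.372-fold for Sox2, 0.141-fold for Sox3 and 0.270-fold for Sox1. With Dcx at day 11, Sox11 was still 5.75-fold higher, whereas Sox2 was 0.798-fold and Sox3 0.696-fold. At days 4 and 5 most Elavl3-positive cells also held Epcam (75.4% and 69.7%), and Sox11 was lower in the Elavl3-positive cells (0.696-fold and 0.771-fold). Without cells holding another marker the day 4 ratio was 1.53-fold, but only 3 positive cells were left. With Dcx the day 5 ratio was 1.25-fold, from 9 positive cells, and its interval (0.965 to 1.59) included 1.

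Dividing the day 11 cells by Hes5, a Notch target of neural progenitors, separated the members. Sox2 had 458.3 CPM in the 334 cells with Hes5 only, 520.5 in the 202 with Hes5 and Elavl3, 65.7 in the 567 with Elavl3 only and 11.9 in the 6747 with neither. Sox3 had 59.7, 72.7, 6.06 and 0.903 CPM in the same order, and Sox1 15.8, 11.3, 1.09 and 0.103. Sox11 had 558.2, 1309, 2612 and 231.8 CPM. Sox9 had 127.0, 169.6, 25.8 and 27.5 CPM. All 3 B1 genes and Sox9 were therefore lower in Elavl3-positive cells without Hes5 than in cells with it, and Sox11 was highest there, while the cells with both genes were high in Sox2 and Sox11 alike. The 536 Hes5-positive cells held 32.2% of Sox9 UMIs and 74.0% of Sox2 UMIs. This division, too, was chosen after the values were seen. It was made on all UMIs, at median depths of 13268 UMIs with Hes5 only, 15771 with both, 9698 with Elavl3 only and 11515 with neither. The part of depth and of merged droplets in these sets was not tested.

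**Figure D4:**
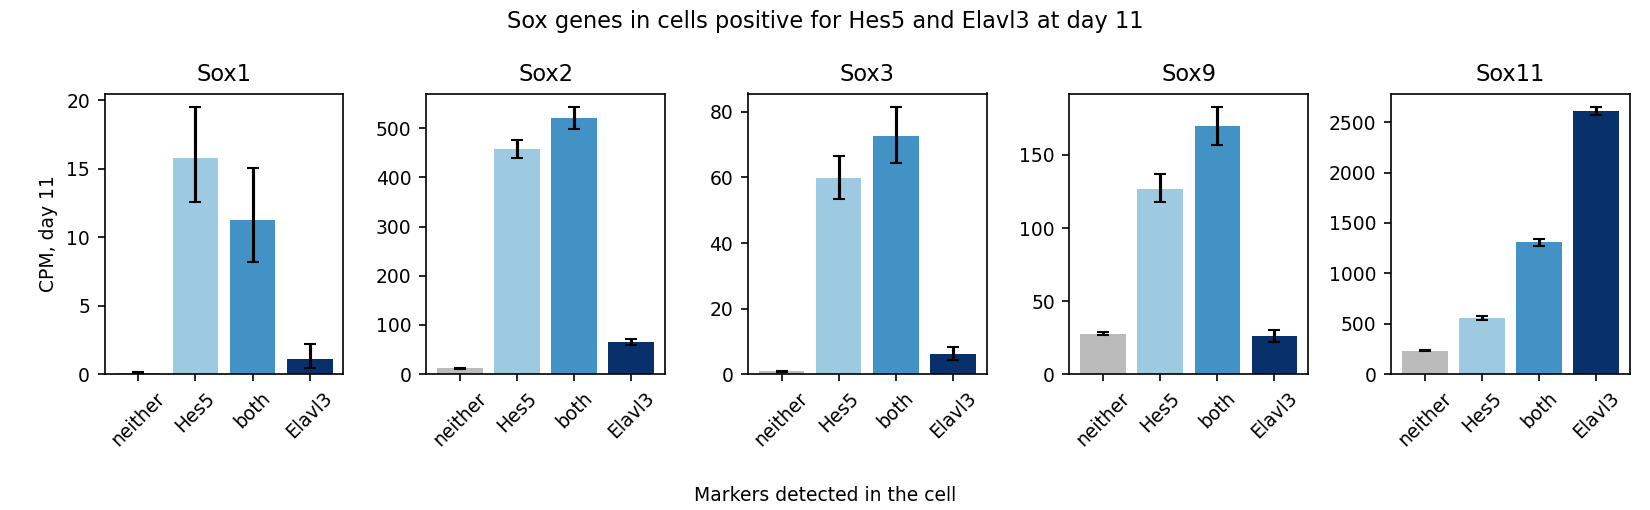
CPM of Sox1, Sox2, Sox3, Sox9 and Sox11 at day 11 in cells with neither Hes5 nor Elavl3 (6747 cells), Hes5 only (334), both (202) and Elavl3 only (567). Each panel has its own axis from 0, and bars are 95% Poisson intervals. Sox2 reaches 520.5 CPM in cells with both and 65.7 in cells with Elavl3 only, while Sox11 is highest, at 2612 CPM, in the latter.

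On all UMIs Twist1 was detected in 64.7%, 69.0%, 74.3% and 49.1% of cells on days 4, 5, 6 and 11. After thinning it was 29.7%, 29.5%, 44.3% and 34.1%. Twist1 was also in 50.9%, 59.9%, 50.7% and 48.9% of Epcam-positive cells on these days. In Cdh5-positive cells it was 55.6%, 79.1%, 57.9% and 15.9%, so the set was broad and not only mesenchyme. Among members of at least 5 CPM in either set at day 5, Sox9 had the highest ratio in Twist1-positive cells, with 17.8 against 9.797 CPM (1.82-fold, 1.65 to 2.00), rank 98 of 9620 genes. Sox18 and Sox7, at lower levels, had ratios of 2.56 and 1.82. The ratio of Sox9 was 1.12 at day 4, 1.07 at day 6 and 1.31 (1.23 to 1.39) at day 11. The first of these turned to 0.948 without cells holding another marker and to 0.881 with Prrx1 in place of Twist1, and the day 6 value to 0.992 as a mean over cells. Sox11 was 1.44-fold higher at day 4 and 1.53-fold at day 5, and 0.727-fold at day 11, where it turned to 1.35-fold once cells with another marker were left out. Sox2 was lower in Twist1-positive cells on every day, with 0.194-fold, 0.127-fold, 0.201-fold and 0.589-fold. Sox10 had 0.420 CPM in them at day 11 against 4.53 in the others.

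**Figure D5:**
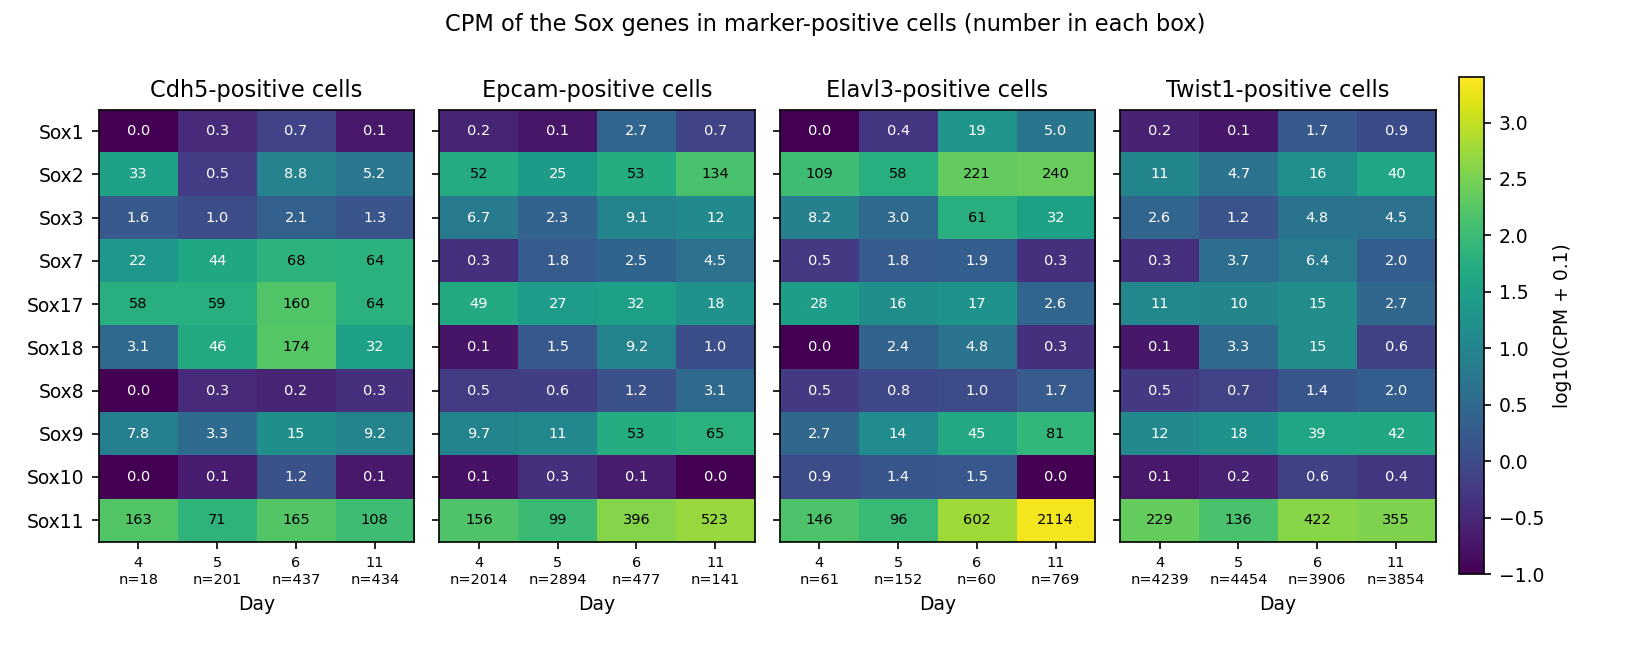
CPM of the 10 Sox genes (rows, by subfamily) in cells positive for Cdh5, Epcam, Elavl3 or Twist1 at days 4, 5, 6 and 11, with the number of positive cells under each column. Colour gives log10(CPM + 0.1). The F genes stand out in the Cdh5 panel from day 5, Sox17 in the Epcam panel at day 4 (49.2 CPM), and Sox11 in the Elavl3 panel at day 11 (2114 CPM).

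At days 6 and 11 most Sox10 UMIs were in the few cells with Foxd3, a neural crest regulator, which held 0 of 22 at day 4 and 1 of 34 at day 5. At day 6 the 29 Foxd3-positive cells had 78.95 CPM of Sox10 (64.6 to 95.6) against 0.161 in the others and held 81.4% of its UMIs. At day 11 the 96 positive cells had 114.4 CPM (99.5 to 131.0) against 0.601 and held 75.9%. Sox9 was 95.5 CPM in Foxd3-positive cells at day 6 against 38.0 in the others, but 28.7 against 37.2 at day 11. Sox11 was 1595 CPM in the Foxd3-positive cells at day 11 against 401.1, but only 35.4% of these cells held Sox10. In the 51 Sox10-positive cells of that day Sox11 had 401.9 CPM, against 420.7 in the others. The summed level of 3 neural crest genes (Foxd3, Erbb3 and Tfap2b) was 216.9 CPM in the 45 cells with at least 2 UMIs of Sox10 at day 11 and 15.2 in the others. Of these 3 genes, 2 were more than 2-fold higher.

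Fixed gene lists for each subfamily were compared between cells positive and negative for that subfamily on all UMIs, for 4 subfamilies on 4 days. The lists hold genes known as partners or targets, and the C list also holds Sox4 and Sox12, which are C genes themselves. Cells counted as positive or negative for C were so by Sox11 alone, while Sox4 was in 78.8% of thinned cells at day 11. Cells positive for a subfamily were deeper than negative cells in every comparison, and the part of depth was not tested. A gene passed with 5 CPM in either set, so one that was low in negative cells could pass only by being high in positive ones, and the counts are descriptions. For B1 at day 4, 6 of 8 genes passed the minimum of 5 CPM and all 6 were at least 2-fold higher, where 4.59% of 9454 genes were. They included the pluripotency genes Pou5f1 (209.2 against 23.7 CPM), Nanog (34.3 against 3.09) and Utf1 (87.3 against 1.82). At day 11, 4 of 8 passed and all 4 were at least 2-fold higher (7.41% of 10888 genes), and they were the neural genes Hes5 (320.8 against 1.06 CPM), Pax6 (38.8 against 1.96), Pou3f2 (150.7 against 8.998) and Nes (160.2 against 54.4). Pou5f1 did not pass at day 11, with 2.25 CPM in B1-positive and 2.19 in B1-negative cells. At day 5, 4 of the 5 that passed were at least 2-fold higher (4.71% of genes), and at day 6 all 6 that passed were (3.55%).

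For F at day 6, 6 of the 8 genes that passed, of 9, were at least 2-fold higher (8.17% of 10303 genes). They were the vessel genes Cldn5 (210.7 against 0.649 CPM), Dll4 (18.4 against 0.0713), Flt4 (33.6 against 0.356), Tek (66.8 against 2.77) and Notch1 (91.8 against 18.2), and the endoderm gene Foxa2 (15.6 against 2.15). The lymphatic regulator Prox1 was at 9.15 against 6.73 CPM. The F list did not stand alike on the other days. At day 4, 4 genes passed, of which Foxa2 alone was at least 2-fold higher (76.0 against 1.63 CPM; 5.43% of genes), and Prox1 and the chemokine receptor gene Cxcr4 were 2-fold lower (3.04% of genes). At day 5, 5 of the 7 that passed were higher (4.03%) and Cxcr4 was lower (1.73%). At day 11, 6 of 8 were higher (8.95%), Cxcr4 now among them at 27.2 against 3.22 CPM, and Prox1 and Vcam1 were lower (15.6%).

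For E at day 11, 2 of the 4 that passed, of 8, were at least 2-fold higher (2.51% of 10732 genes): the cartilage collagen Col2a1 (33.6 against 6.19 CPM) and Erbb3, a receptor gene of neural crest and glia (5.71 against 1.69). Acan, the aggrecan of mature cartilage, was at 0.0947 against 0.0981 CPM. On the earlier days no E list gene was 2-fold higher or lower among the 3 that passed at day 6 (0.41% of genes higher), and none passed at days 4 and 5. For C at day 11, 2 of 5 were at least 2-fold higher (6.29% of 10761 genes), both of neurons: Tubb3 (176.2 against 3.44 CPM) and Dcx (26.3 against 2.46). On days 4, 5 and 6, 3 of the 5 C list genes passed, namely Tead2 and the C genes Sox4 and Sox12. None of these was 2-fold higher or lower, where 3.39%, 1.72% and 5.72% of genes were higher.

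Of the genes counted as higher, those under 5 CPM in negative cells were 4 of 6 for B1 at day 4 and 2 of 4 at day 11, 5 of 6 for F at day 6, 1 of 2 for E and 2 of 2 for C at day 11. With the minimum taken over all cells of the day, 4, 3, 5 and 4 of the 8 B1 genes were at least 2-fold higher on days 4, 5, 6 and 11, where 2.41%, 2.04%, 2.1% and 5.51% of genes were. For F it was 1, 3, 4 and 5 of 9 genes (2.94%, 2.25%, 5.36% and 6.44%). At day 11 it was 1 of 8 E list genes, Col2a1 (1.9%), and 2 of 5 C list genes (6.1%), with none of either list on the earlier days.

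The genes whose pattern over cells was most like each member were named from Pearson correlations of log-transformed counts at the day with most UMIs of the member. These are descriptions over cells of 1 library, which share depth. For Sox18 (day 6, 5254 cells) they were Ecscr (r = 0.880), Icam2 (0.869) and Esam (0.864), and for Sox7 on the same day Cdh5 (0.764), Ecscr (0.758) and Icam2 (0.751), all genes of endothelium. For Sox17, whose UMIs were most numerous at day 4 (6555 cells), they were Cldn6 (0.754), Emb (0.738) and Foxa2 (0.732).

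For Sox2 (day 11, 7850 cells) the nearest were Fabp7 (0.796), Rfx4 (0.771) and Pax3 (0.760). Sox1 and Sox3 at day 6 were nearest to Sox2 (0.557 and 0.649), followed by Sox3 (0.500) and Foxb1 (0.461) for Sox1 and by Fez1 (0.591) and Pou3f2 (0.571) for Sox3. Sox8 at day 11 was nearest to Myod1 (0.281), Myog (0.280) and Car3 (0.271), of which the former pair are regulators of skeletal muscle. Sox10 was nearest to Phactr1 (0.444), Itga4 (0.2499) and Arhgef26 (0.245). Sox9 at day 6 had no close neighbour, with Hoxb8 (0.279), Osr1 (0.277) and Nrip1 (0.255). Sox11 at day 6 was nearest to Meis2 (0.438), Peg3 (0.393) and Igdcc3 (0.386).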

How the data were processed

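Droplet 3′ libraries from day 4, 5, 6 and 11 gastruloids were analysed from the UMI count matrices deposited by the authors, 1 library per day. Per the labels the authors used Cell Ranger 3.1.0 and mm10, the day 11 file header names version 6.0.1, and the annotation is not given in the sources used here. Cells were kept with more than 200 genes, under 20% mitochondrial and over 5% ribosomal protein UMIs, and a log depth no further than 3 scaled median absolute deviations from the median. The 8% with the highest simulated-doublet scores (2000 variable genes without the members) were then removed. Ratios of summed counts carry exact conditional binomial 95% intervals, levels exact Poisson ones, and shares Clopper-Pearson ones. Cells under 5000 UMIs were left out of thinned shares (0, 0, 12 and 323 cells). A level of 0 was set to 3 UMIs only when genes were ordered or called at 2-fold. Named genes were the members, the 4 markers and their alternatives, fixed partner lists, other Sox genes and, for each member, the 3 most correlated genes. Some listed genes are not reported here, and list counts leave them out. Members and lists were chosen with earlier results of these data known. Alternatives were looser filtering, doublets left in or 16% removed, thinning to 3000 or 10000 UMIs or none, a 2 UMI minimum, other markers, and means of per-cell CPM. Functions were tested on simulated data. Python 3.11.15, numpy 2.4.6, scipy 1.17.1 and pandas 2.3.3 were used.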

Additional observations from a re-analysis of the deposited data

Results flagged for a closer look

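Some values lay on opposite sides of 1 on different days, by at least 2-fold and with intervals off 1 on each side. With 1 library per day, none of these differences between days was tested. The ratio of observed to expected cells positive for B1 and E was 0.481 at day 4, 0.402 at day 5 and 2.42 at day 11. For each of the first pair of these days, 3 of 20 further thinning draws gave an interval that included 1. Sox9 in Elavl3-positive cells was 0.230-fold the level of negative cells at day 4, in 61 cells, and 2.48-fold at day 11. Sox10 in Elavl3-positive cells was 10.2-fold at day 5 and 0-fold at day 11, where no UMI of Sox10 was counted in 769 cells. The day 5 value came from 7 of the 34 Sox10 UMIs of that day, in 152 cells. Its level there, 1.42 CPM, was under the 5 CPM minimum. Sox10 in Epcam-positive cells was 6.72-fold at day 5, with a level of 0.315 CPM, then 0.128-fold at day 6 and 0-fold at day 11, in 141 cells. The day 6 value came from 2 UMIs in the positive cells. Sox18 in Twist1-positive cells was 2.56-fold at day 5, 0.432-fold at day 6 and 0.115-fold at day 11. With other markers some of these values lay on the other side of 1, in part from few cells. Sox9 at day 4 was 1.32-fold (0.702 to 2.26) with Dcx in place of Elavl3, in 19 positive cells. It was 1.19-fold without cells holding another marker, which left 3 positive cells. Sox10 at day 5 was 0-fold with Dcx (0 to 52.9), in 9 positive cells. Sox18 at day 5 was 0.223-fold with Prrx1 in place of Twist1, where 79.1% of Cdh5-positive cells held Twist1.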

How the results depend on the processing

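Of 1308 recomputed ratios, 22 turned to the other side of 1 from a reported value at least 2-fold away from 1 with an interval off 1, and these are given below. A further 20 turned from values under 2-fold with an interval off 1, and 70 from values whose interval included 1. The 2-fold limit was set after these values had been seen, as was the choice of the 20 ratios for which each value outside the 95% counting interval is given. The cause was not tested. Over all 160 marker ratios, 51 stayed within their intervals with the alternative marker, 66 with at least 2 UMIs of the marker, 123 as a mean over cells and 138 with looser filtering. Without cells holding another marker, 46 of the 156 that gave a value did. With looser filtering, doublets left in, or 16% removed, all 24 subfamily pair ratios stayed within their intervals, as did the medians over 20 further thinning draws, an alternative chosen after seeing the data, as was the minimum over all cells for partner genes.
For pairs, a minimum of 2 UMIs gave 0 for B1 and E at days 4 and 5, for B1 and F at days 4, 5 and 6 and for E and F at days 5 and 11, and gave 0.137 for E and F at day 6, 3.76 for B1 and E at day 11 and, reversed, 1.23 for E and F at day 4. Without thinning, B1 and F had 1.12 at day 4, 0.809 at day 6 and 0.189 at day 11, and E and F 0.785 at day 6 and 0.500 at day 11. Thinned to 3000 UMIs, B1 and F had 0.0494 at day 6 and E and F 0.0833 at day 5. Thinned to 10000 UMIs, E and F had 0.370 at day 11.
Sox17 in Epcam-positive cells at day 4 was 43.8-fold with doublets left in, 84.1-fold with at least 2 UMIs of the marker, 35.4-fold without cells holding another marker and 86.0-fold with Cldn6. Sox17 in Cdh5-positive cells at day 5 was 4.81-fold with 2 UMIs, 25.4-fold without other markers, 1.39-fold with Pecam1 and 4.84-fold as a mean over cells. At day 6 it was 32.7-fold with doublets, 45.4-fold with 16% removed, 44.6-fold with 2 UMIs, 203.3-fold without other markers, 27.0-fold with Pecam1 and 51.2-fold as a mean. At day 11 it was 36.1-fold with looser filtering, 42.1-fold with doublets, 80.0-fold with 16% removed, 66.2-fold without other markers and 40.9-fold as a mean. Sox18 in Cdh5-positive cells at day 6 was 105.9-fold with Pecam1. Sox9 in Twist1-positive cells at day 11 was 1.46-fold with 2 UMIs and 1.53-fold without other markers.
Sox2 in Elavl3-positive cells at day 11 was 7.21-fold with looser filtering, 6.09-fold with doublets, 5.51-fold with 2 UMIs, 5.86-fold without other markers, 5.31-fold as a mean and, reversed, 0.798-fold with Dcx. Sox11 there was 8.12, 7.65, 10.3, 10.5 and 8.72-fold in those first settings and 5.75-fold with Dcx.
Other reversals came mostly with the alternative marker. With Dcx, Sox2 was 0.102-fold at day 4, 0 at day 5 and 0.372-fold at day 6, Sox3 0.141-fold at day 6 and 0.696-fold at day 11, Sox1 0.270-fold at day 6 and 0.235-fold at day 11, Sox9 1.32-fold at day 4 and Sox10 0 at day 5. Dcx was detected in only 19 cells at day 4 and 9 at day 5. The intervals of Sox9 at day 4 (0.702 to 2.26) and Sox10 at day 5 (0 to 52.9) included 1. With Pecam1, Sox17 was 0.689-fold at day 4 and Sox2 5.48-fold at day 5, and with Prrx1 in place of Twist1 Sox18 was 0.223-fold at day 5. Without cells holding another marker, Sox17 and Sox18 in Cdh5-positive cells and Sox3 in Elavl3-positive cells were 0 at day 4, Sox9 in Elavl3-positive cells was 1.19-fold at day 4, and Sox17 in Twist1-positive cells was 1.04-fold at day 5 and 1.61-fold at day 6. At day 4 this left only 3 Cdh5-positive and 3 Elavl3-positive cells. With 2 UMIs of Elavl3, Sox3 was 0 at day 4, and with 16% removed Sox17 in Epcam-positive cells was 0.920-fold at day 11.
Shares of positive cells scale with depth, so none of the 40 stayed within its interval without thinning. Cells positive for a marker were often deeper than the rest, and a member that was not detected in a cell may be present below the depth reached.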

Other observations

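The 42 cells with at least 2 UMIs of Sox8 at day 11 had no UMI of the 8 endothelial genes listed (summed level 0 against 206.5 CPM in the others) and 395.8 against 6952 CPM of the 4 cardiomyocyte genes. They had 59.7 against 16.5 CPM of the 3 neural crest genes, of which 2 were more than 2-fold higher. No list of skeletal muscle genes was summed, although Sox8 was nearest to Myod1 (r = 0.281) and Myog (0.280) on that day. The kind of cell these are was not tested. The 45 cells with at least 2 UMIs of Sox10 on that day had 3.17 against 206.3 CPM of the endothelial genes and 2714 against 6927 of the cardiomyocyte genes. In Dcx-positive cells of that day Sox8 had 4.95 CPM against 1.89 in the others, 2.63-fold (1.86 to 3.64), while in Elavl3-positive cells the ratio was 0.792 (0.461 to 1.28).

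At day 6, 5 of the 6 epithelial or endodermal genes listed were more than 2-fold higher in the 1142 cells with at least 2 UMIs of Sox9, with a summed level of 105.5 against 23.6 CPM, while Sox17 and Sox9 met in 19 cells against 34.7 expected (0.548, 0.330 to 0.855). At day 4, cells with at least 2 UMIs of Sox17 had 669.7 against 50.4 CPM of the same list and all 6 of its genes were more than 2-fold higher. Of the 8 endothelial genes 6 were more than 2-fold higher in these cells, while their sum was lower, at 14.5 against 61.1 CPM. Kdr, which had 53.4 CPM over all cells of that day, made up most of that sum. No minimum level was applied to these counts of listed genes, and no share over all genes was taken. Over all day 4 cells Tie1 had 0.0311 CPM, Emcn 0.0104, Icam2 0.00519, Apoa2 0.0208 and Afp 0.0415. At day 6 Apoa2 had 0.0266 CPM and Afp 0.0932. Such genes can be counted as higher from few UMIs.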
